A study of Homo sapiens with 63 samples.

Results

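The genes described here are 60 genes of mitosis: the kinase CDK1 with its cyclins and CDC25 phosphatases, the Aurora, Polo-like and NIMA-related kinases, the chromosomal passenger complex, the spindle assembly checkpoint, the factors that start anaphase, kinetochore proteins, mitotic kinesins, spindle and cytokinesis proteins, condensin, and the transcription factors FOXM1 and MYBL2. They were set by a list of gene symbols, which was chosen with earlier results of these data known. All 60 were found among the 13962 genes of the expression table and passed the filter on low values at every time. The study treated COLO320DM, a human colorectal adenocarcinoma cell line, in culture with Helicon 4, with Helicon 4-neg or with DMSO, the solvent, for 6, 24 or 48 h. Each compound was given at 1, 3 and 10 µM, which with DMSO at each time makes 21 groups of 3 libraries, 63 in all. All groups shared 1 cell line in RPMI medium with 4% FBS, with no engineered allele. The series describes its helicon as a peptide aimed at β-catenin bound to TCF transcription factors, the nuclear effectors of Wnt signalling. What Helicon 4-neg is beyond its name is not given in the sources used here.

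Cells that enter mitosis switch on CDK1 bound to cyclin B, and Aurora and Polo-like kinases then build the spindle. Kinetochores tie the chromosomes to microtubules and kinesins move or remodel those microtubules. The spindle checkpoint holds the anaphase-promoting complex back until all chromosomes are attached. Transcripts of most of these genes are low in early cell cycle phases and peak in G2 and mitosis, under FOXM1, B-MYB (the product of MYBL2), the MuvB complex and E2F factors. In a bulk library, fewer cells in G2 and mitosis and less RNA of each gene per cell cannot be told apart. This holds for every value that follows.

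Values are the deposited normalised values, read counts per gene divided by a size factor of the library, and they are not divided by gene length. Libraries held 16628595 to 32860333 reads in genes, so that 1 read was worth 0.0301 to 0.0622. Fold changes were taken on the log2(value + 1) scale, which understates the change of low genes, and tested with limma across all genes that passed the filter. A gene was called at a Benjamini-Hochberg adjusted p below 0.05. Replicates carry separate biological replicate numbers in the labels, but whether these are separate cultures is not said, and the p-values cover only the spread between such samples. By a rule on distances between libraries, 5 of the 63 stood apart from both of their own replicates. They are DMSO replicate 2 at 6 h, replicate 1 of Helicon 4 at 3 and at 10 µM at 24 h, replicate 1 of Helicon 4-neg at 1 µM and replicate 3 at 3 µM at 48 h. None of the 5 is in the 48 h comparisons at 10 µM. The label of a colorectal cell line was checked against epithelial markers: CDX2 had a median value of 3327, KRT8 of 161 and KRT18 of 71.4, while EPCAM (2.08), CDH1 (0.504) and KRT19 (0.374) were low. Fibroblast markers, of which 7 are in the table, summed to 7.21 to 70.9 per library. The sum was above 40 in 15 libraries of 10 groups, of DMSO and both compounds, and in no group was it above 40 in every library. At 48 h with Helicon 4 it was 14.4 to 20.3 at 1 µM, 28.9 to 70.9 at 3 µM and 29.2 to 34.8 at 10 µM. With Helicon 4-neg it was 11.8 to 13.4 at 1 µM, 11.7 to 62.0 at 3 µM and 7.21 to 11.1 at 10 µM. In DMSO at that time it was 9.77, 10.3 and 47.0.

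At 48 h, 10 µM Helicon 4 was accompanied by lower levels of nearly all of these genes. Against DMSO, 54 of the 60 fell and none rose, where 28.7% of the 13478 genes tested fell and 31.1% rose. Their median log2 fold change was -0.53, beside 0.02 over all genes tested. The groups did not overlap for any of the 54, each Helicon 4 library lying below each DMSO library. How often the groups were separated in this way over all genes tested was not counted. Taken library by library, the median difference of the 60 genes from the DMSO mean was -0.55, -0.53 and -0.54 in the 3 libraries, and 57 or 58 of the 60 genes lay below that mean in each. The summed value of the 60 genes was 5546 ± 26.9 in DMSO and 3846 ± 52.8 with Helicon 4 (mean ± SD, n = 3 each). Summed fibroblast markers were 29.2 to 34.8 in the 3 libraries of Helicon 4, above the DMSO libraries at 9.77 and 10.3 and below the one at 47.0. The collagen gene COL3A1 made up most of the sum with Helicon 4, at 16.2 to 20.3 beside 4.11 to 5.00 in DMSO, while COL1A2 (0 to 1.26) and DCN (0 to 0.0382) were at or near 0. The DMSO library with a marker sum of 47.0 had a summed value of the 60 genes of 5518, and those at 9.77 and 10.3 had 5572 and 5547. With 3 µM Helicon 4, the library with a marker sum of 28.9 had a summed value of the 60 genes of 3977, and those at 70.5 and 70.9 had 4027 and 4038. The part of these markers in the lower levels was not tested.

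**Figure D1:**
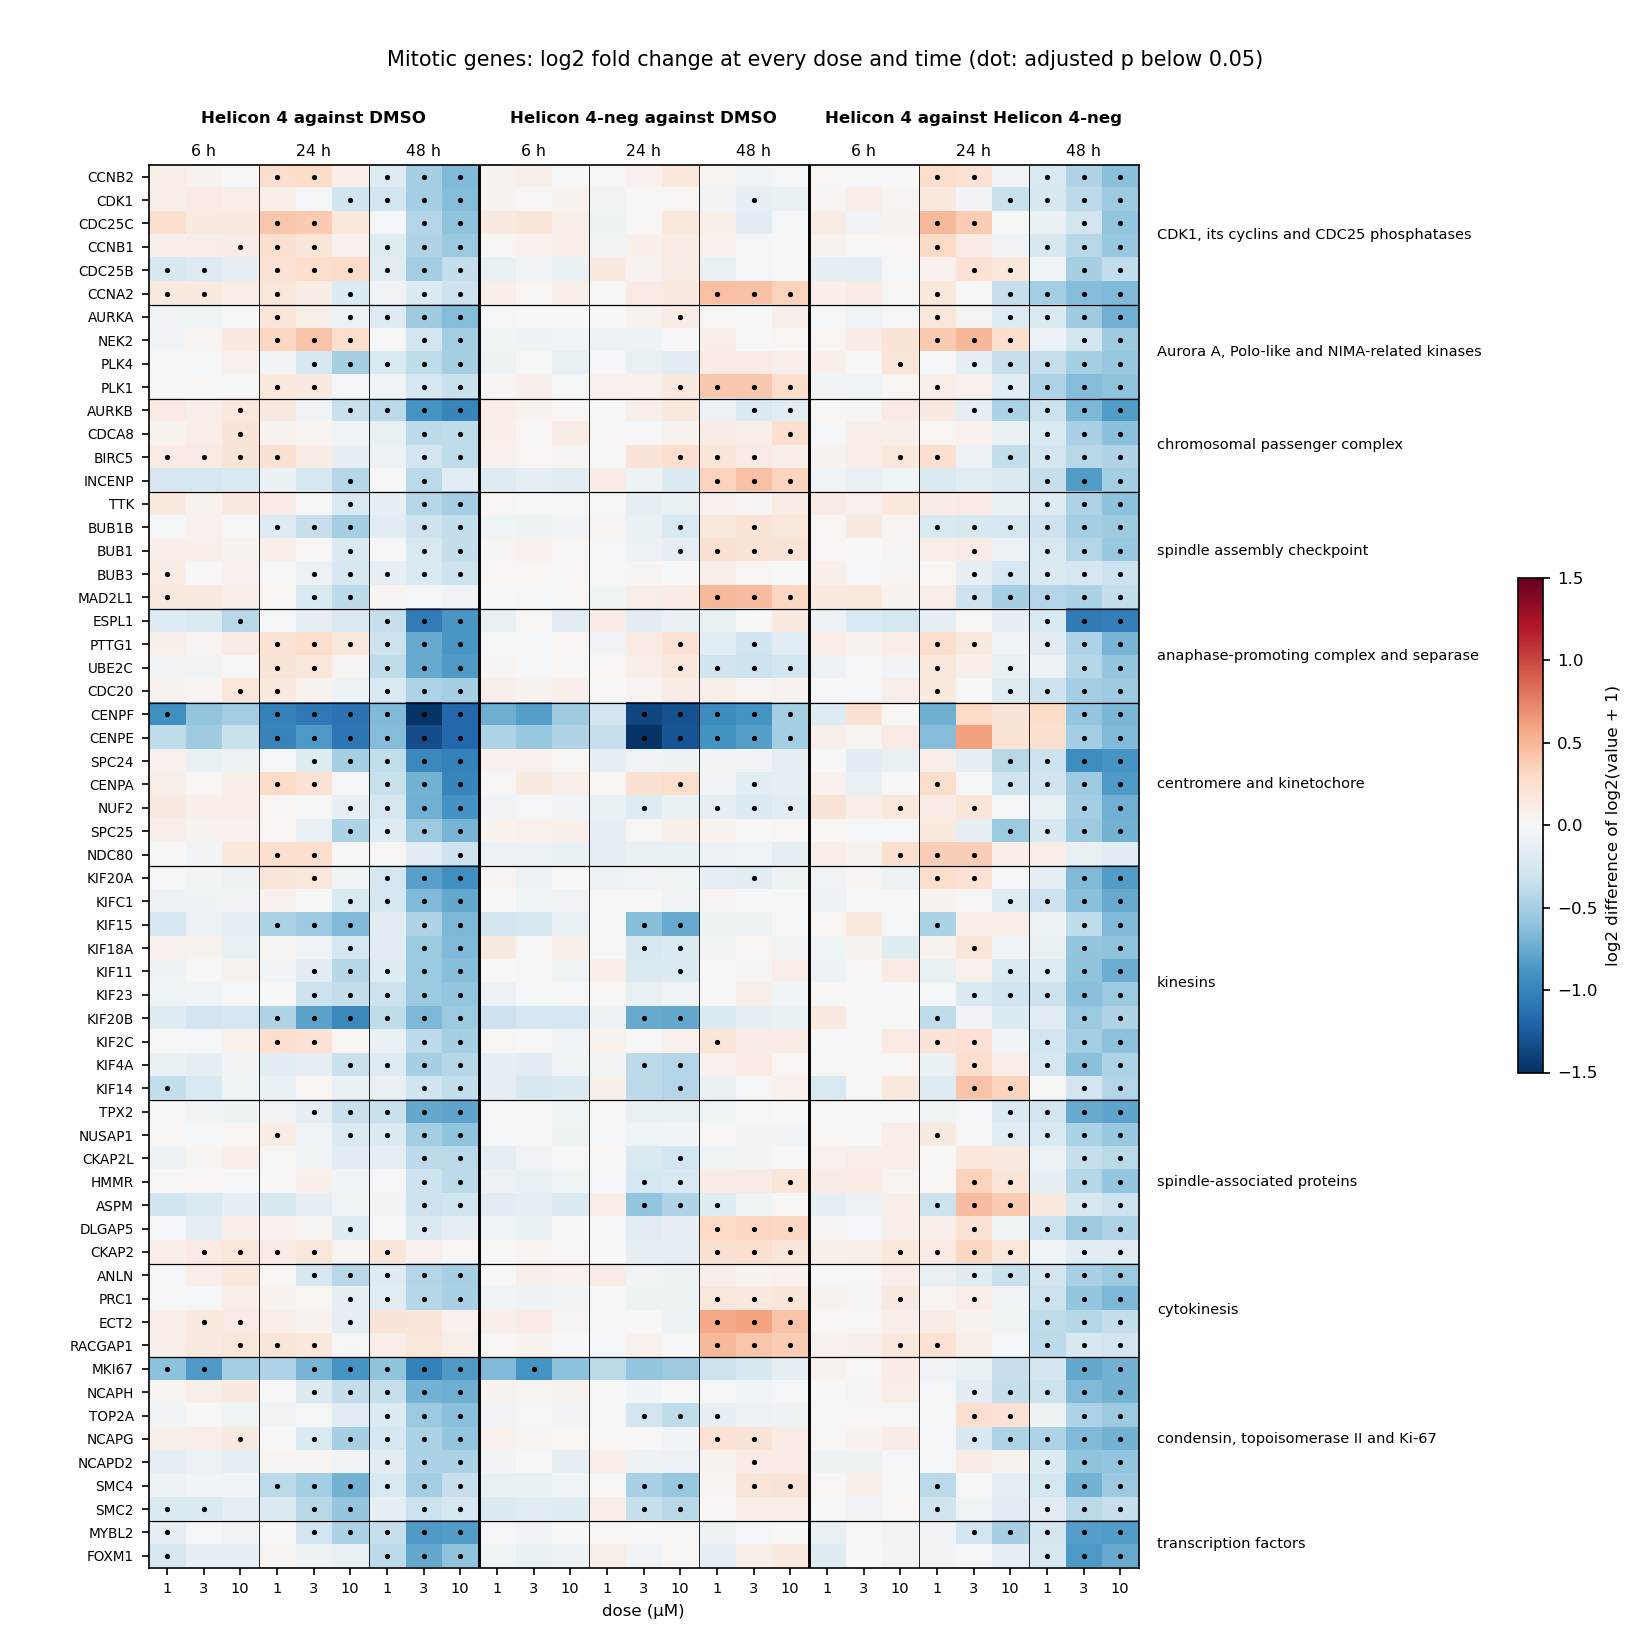
Log2 fold change (colour) of each of the 60 genes, in rows ordered by role, at each dose and time for both compounds against DMSO and for the 2 compounds against each other. A dot marks an adjusted p below 0.05. The 48 h columns of Helicon 4 at 3 and 10 µM are lower for most rows, with 55 and 54 genes called lower.

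All 6 genes of the CDK1 module fell at 48 h with 10 µM Helicon 4, with a median log2 fold change of -0.58. CDK1 (ENSG00000170312), the kinase that drives entry into mitosis, read 200, 205 and 213 in the DMSO libraries and 130, 132 and 132 in the Helicon 4 libraries, a log2 fold change of -0.65 (SE 0.04, adjusted p = 3.83e-12). CCNB1 (ENSG00000134057), the B-type cyclin that activates it, read 236, 231 and 242 against 157, 162 and 161 (log2 fold change -0.56, SE 0.04, adjusted p = 2.91e-11). In both genes the treated libraries agreed within a few units of each other and lay well below the lowest DMSO library. CCNB2, the second B-type cyclin, moved furthest at -0.66, and CCNA2, which acts from S phase into early mitosis, least at -0.31. The phosphatases that remove the inhibitory phosphates of CDK1 lay between, CDC25C at -0.61 and CDC25B at -0.36.

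Aurora A, Polo-like and NIMA-related kinases all fell at 48 h, 4 of 4, with a median of -0.50. AURKA (ENSG00000087586), which matures centrosomes and the spindle poles, read 139, 141 and 136 in DMSO and 88.4, 88.6 and 87.9 with 10 µM Helicon 4 (log2 fold change -0.65, SE 0.04, adjusted p = 1.85e-12). PLK1 (ENSG00000166851), the Polo-like kinase of mitotic entry and exit, read 168, 150 and 160 in DMSO and 128, 130 and 121 with Helicon 4. Its groups did not overlap either, but its log2 fold change of -0.33 (SE 0.07, adjusted p = 2.44e-04) was the smallest of the 4. PLK4, which starts centriole duplication, and NEK2, which separates centrosomes, were at -0.49 and -0.51.

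In the chromosomal passenger complex, the kinase subunit fell more than its partners. AURKB (ENSG00000178999), which corrects faulty attachments at the centromere, read 154, 167 and 159 in DMSO and 76.6, 80.2 and 82.5 with Helicon 4, a log2 fold change of -0.99 (SE 0.05, adjusted p = 1.92e-13). The highest treated library lay far below the lowest DMSO library. BIRC5 (survivin) and CDCA8 (borealin), which place the kinase on chromosomes, were both at -0.38. INCENP, its scaffold, was not called at -0.17 (adjusted p = 0.217).

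Genes of the spindle assembly checkpoint fell in 4 of 5 cases. The kinase TTK was the lowest at -0.50, BUB1 and BUB1B were both at -0.36, and BUB3, the WD-repeat partner of the latter pair, was at -0.32. MAD2L1, the inhibitor of CDC20 at the centre of the checkpoint, read 154, 142 and 144 in DMSO and 142, 141 and 141 with Helicon 4. Its groups overlapped and it was not called (log2 fold change -0.05, adjusted p = 0.59).

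All 4 genes that start anaphase fell, with a median of -0.86. ESPL1, the protease separase that cuts cohesin, read 31.99, 26.9 and 26.5 in DMSO and 16.8, 15.1 and 13.4 with Helicon 4 (log2 fold change -0.87). PTTG1, securin, which holds separase inactive, was at -0.87 as well and UBE2C, the ubiquitin-conjugating enzyme of the anaphase-promoting complex, at -0.86. CDC20, the activator of that complex, was the least lowered at -0.49.

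Centromere and kinetochore genes had the lowest median of any role, -0.99, and all 7 fell. CENPF (ENSG00000117724), a large protein of the outer kinetochore, read 46.9, 55.2 and 51.7 in DMSO and 21.1, 22.6 and 22.3 with Helicon 4 (log2 fold change -1.18, SE 0.11, adjusted p = 2.87e-09). CENPE (ENSG00000138778), the kinesin that carries chromosomes to the spindle equator, read 14.7, 18.0 and 17.6 against 6.76, 6.41 and 7.39 (log2 fold change -1.18, SE 0.14, adjusted p = 1.13e-07). These are the largest falls among the 60 genes, with no overlap between groups. Both genes were also called lower with Helicon 4-neg at each dose at 48 h, as given below.

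SPC24 (ENSG00000161888), a subunit of the NDC80 complex that binds microtubules, was next, with 23.3, 28.2 and 29.98 in DMSO and 12.5, 13.1 and 12.9 with Helicon 4 (log2 fold change -1.02, SE 0.09, adjusted p = 5.66e-10). CENPA, the histone H3 variant that marks the centromere, read 57.0, 57.0 and 60.01 against 28.2, 29.1 and 28.9 (log2 fold change -0.99). The 4 subunits of the NDC80 complex did not move by like amounts: NUF2 was at -0.90 and SPC25 at -0.70, but NDC80 itself, at 24.3, 27.3 and 29.5 in DMSO and 22.1, 19.1 and 23.5 with Helicon 4, at -0.31.

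All 10 kinesins fell, with a median of -0.62. KIF20A, needed at the central spindle for cytokinesis, read 75.5, 77.1 and 75.4 in DMSO and 37.7, 39.0 and 42.8 with Helicon 4 (log2 fold change -0.92). KIF14, another cytokinesis kinesin, moved least, from 12.9, 14.6 and 14.1 to 11.1, 10.4 and 10.1 (log2 fold change -0.37). KIF11, which pushes spindle poles apart, was at -0.64, KIFC1, which clusters them, at -0.77, and KIF2C, which takes microtubule ends apart, at -0.50.

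Spindle-associated proteins fell in 5 of 7 cases, with a median of -0.40. TPX2, which activates AURKA on spindle microtubules, read 302, 301 and 302 in DMSO and 171, 172 and 178 with Helicon 4 (log2 fold change -0.80, SE 0.04, adjusted p = 2.23e-14). NUSAP1 was at -0.61. CKAP2, a stabiliser of microtubules, overlapped between groups (164, 153 and 147 against 150, 155 and 165) and was not called (log2 fold change 0.02, adjusted p = 0.77), nor was DLGAP5 at -0.15.

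Of the 4 cytokinesis genes, ANLN, a scaffold of the contractile ring, and PRC1, which bundles microtubules between the separating chromosomes, fell, both at -0.49. RACGAP1 and ECT2, the partners that switch on RhoA at the cell equator, were not called. RACGAP1 read 69.7, 64.9 and 60.5 in DMSO and 69.6, 70.0 and 67.1 with Helicon 4 (log2 fold change 0.08, adjusted p = 0.47). ECT2 read 79.4, 68.8 and 70.5 against 75.4, 73.7 and 79.2 (log2 fold change 0.06, adjusted p = 0.67). The groups of this pair overlapped.

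Condensin, topoisomerase II and Ki-67 genes fell in 7 of 7 cases, with a median of -0.59. TOP2A (ENSG00000131747), which untangles sister DNA, read 306, 307 and 311 in DMSO and 192, 198 and 208 with Helicon 4 (log2 fold change -0.62, SE 0.04, adjusted p = 3.94e-12). MKI67 (ENSG00000148773), the Ki-67 protein that coats mitotic chromosomes and is used to mark cycling cells, was a low gene in this table, with 9.02, 11.7 and 9.75 in DMSO and 4.93, 5.57 and 4.98 with Helicon 4 (log2 fold change -0.85, SE 0.12, adjusted p = 2.22e-06). Both genes separated the groups, TOP2A at a level many times that of MKI67. Among the condensin genes NCAPH was lowest at -0.73 and SMC2 highest at -0.26.

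Both transcription factors fell. FOXM1 (ENSG00000111206), which drives many genes of G2 and mitosis, read 67.2, 58.4 and 60.8 in DMSO and 44.5, 36.7 and 40.4 with Helicon 4 (log2 fold change -0.61, SE 0.07, adjusted p = 2.20e-07). MYBL2, which encodes B-MYB, read 126, 114 and 121 against 68.1, 67.2 and 65.1 (log2 fold change -0.84).

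**Figure D2:**
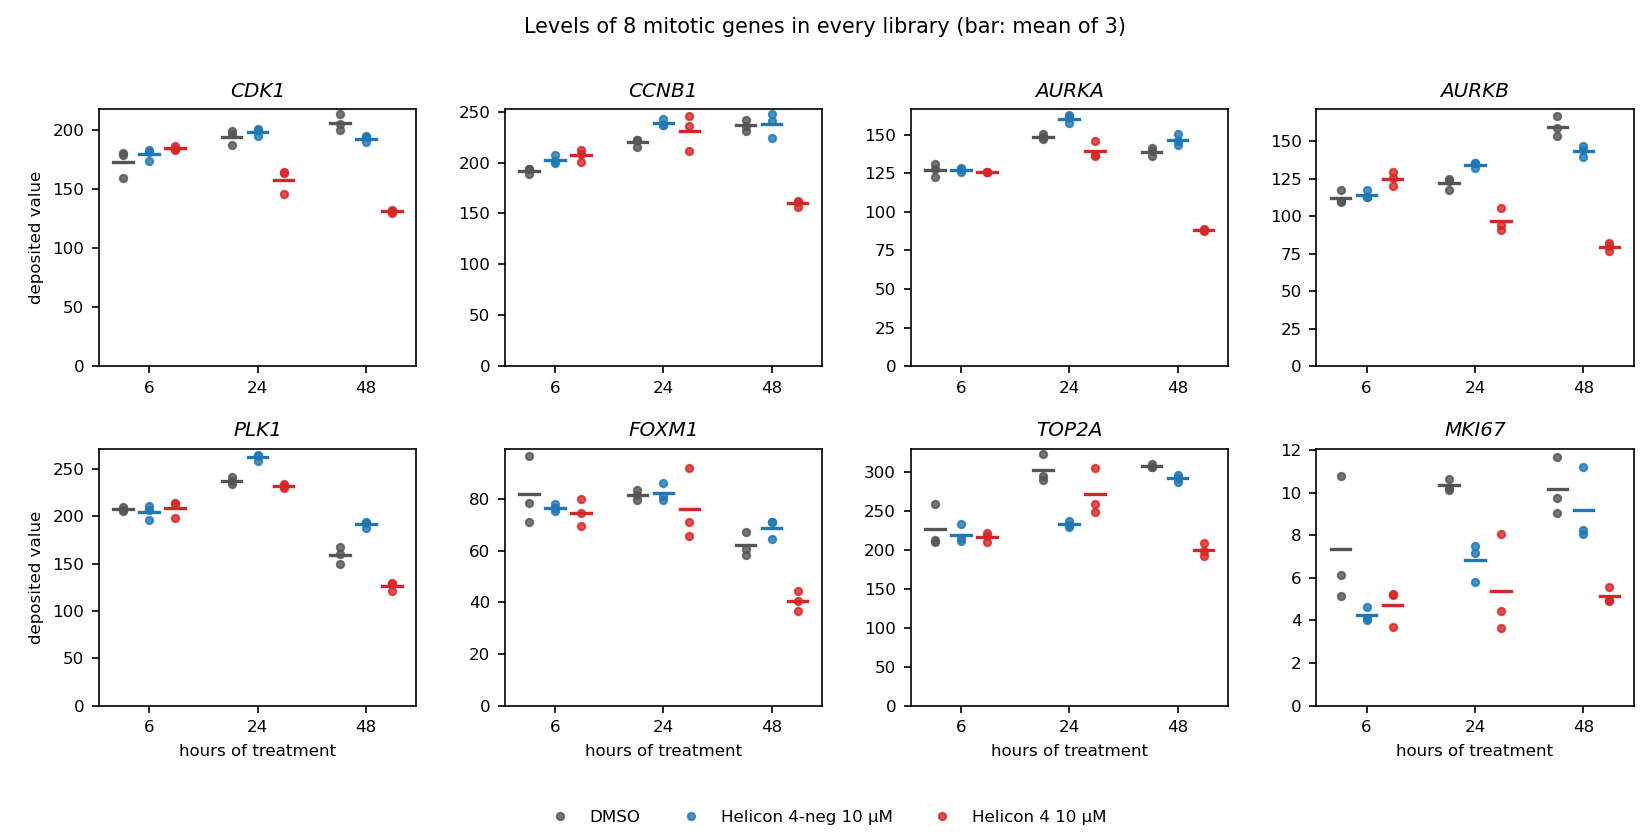
Deposited normalised value in each library (points) of 8 genes at 6, 24 and 48 h for DMSO, Helicon 4-neg at 10 µM and Helicon 4 at 10 µM, with a bar at the mean of 3. At 48 h all 3 Helicon 4 points of each gene lie below the DMSO and Helicon 4-neg points, as for CDK1 with 130 to 132 against 189 to 213.

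Set against Helicon 4-neg at the same dose, the lower level at 48 h took in still more of the genes. At 10 µM, 59 of the 60 were lower with Helicon 4 than with Helicon 4-neg and none was higher, where 27.0% of all genes tested were lower and 26.7% higher. The median difference was -0.59 on the log2 scale. Summed fibroblast markers separated these groups, at 29.2 to 34.8 with Helicon 4 and 7.21 to 11.1 with Helicon 4-neg. COL3A1 was at 16.2 to 20.3 and 2.44 to 2.93, COL1A1 at 6.18 to 7.56 and 2.18 to 4.13, PDGFRA at 1.605 to 2.62 and 0.141 to 0.959, and PDGFRB at 2.41 to 3.22 and 1.31 to 1.55. COL1A2, DCN and THY1 overlapped between the groups. Their part in the result was not tested. ESPL1 differed most, at -1.02 (95% interval -1.19 to -0.85), followed by SPC24 at -0.89 and CENPA at -0.85. AURKB differed by -0.84 (-0.95 to -0.73), AURKA by -0.72 (-0.80 to -0.64), CDK1 by -0.55 (-0.64 to -0.47) and CCNB1 by -0.57. TOP2A differed by -0.55 (-0.63 to -0.46), MKI67 by -0.71 (-0.96 to -0.46), FOXM1 by -0.75 (-0.91 to -0.60) and PLK1 by -0.60 (-0.74 to -0.46). Among 45 contrasts in all, adjustment was over all genes within each contrast and not across contrasts.

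The smallest differences between the compounds were in CKAP2 at -0.16, NDC80 at -0.17 and RACGAP1 at -0.29. NDC80 was the 1 gene not called, with a 95% interval of -0.33 to -0.01 and an adjusted p of 0.0603. CKAP2 was called at an adjusted p of 0.0173, but not without replicate 1 of Helicon 4 (0.086) or replicate 2 of Helicon 4-neg (0.080), and RACGAP1 not without the latter library (0.051). ECT2 and MAD2L1, which were not called against DMSO, were lower against Helicon 4-neg, both at -0.36. Their Helicon 4-neg libraries stood above DMSO: ECT2 read 96.8, 100 and 96.9 there and MAD2L1 173, 183 and 189. Every role had a median between -0.46 and -0.80 in this comparison, spindle-associated and cytokinesis genes at the upper end and the transcription factors at the lower.

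At the lower doses the same comparison gave 41 genes lower at 1 µM (all genes: 20.1% lower, 15.8% higher), with a median of -0.24. At 3 µM it gave 59 (26.6% lower, 25.9% higher), with a median of -0.51. None of the 60 was called higher at either dose, though CENPF and CENPE stood at 0.28 and 0.24 at 1 µM.

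By the median of the 60 genes, dose was graded at 48 h and the largest step lay between 1 and 3 µM. With Helicon 4, 36 genes were lower than DMSO and 1 higher at 1 µM (21.2% and 19.7% of all genes tested), and 55 were lower and none higher at 3 µM (28.5% and 30.8%). The median log2 fold change went from -0.18 at 1 µM to -0.47 at 3 µM and -0.53 at 10 µM. Not every gene followed this order. CENPF (-1.47 and -1.18), CENPE (-1.33 and -1.18) and ESPL1 (-1.05 and -0.87) were among those lower at 3 µM than at 10 µM. Of the 60, 36 were lower at all 3 doses and 17 at 3 and 10 µM but not 1 µM. How many of all genes tested showed either pattern was not counted. The one gene higher at 1 µM was CKAP2, at 0.18. Fitted against log10 dose, 50 genes had a falling slope and none a rising one (15.1% and 16.2% of all genes). The steepest was KIF20A at -0.65 per 10-fold dose (SE 0.06), then CENPA at -0.65 and SPC24 at -0.64.

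For the genes named by function the 48 h doses ran as follows. CDK1 stood at log2 fold changes of -0.29, -0.51 and -0.65 at 1, 3 and 10 µM, and CCNB1 at -0.18, -0.45 and -0.56. AURKA stood at -0.19, -0.54 and -0.65, and AURKB at -0.41, -0.88 and -0.99. The libraries behind the AURKB values read 118, 119 and 123 at 1 µM and 88.6, 86.4 and 83.3 at 3 µM, so the 3 doses and DMSO did not overlap. TOP2A stood at -0.20, -0.56 and -0.62. PLK1 was not called at 1 µM (-0.05) and stood at -0.25 and -0.33 at the higher doses. MKI67 and FOXM1 were lowest at 3 µM, MKI67 at -0.60, -1.01 and -0.85 and FOXM1 at -0.39, -0.77 and -0.61. The slope of FOXM1 was -0.21 (adjusted p = 0.034) and that of MKI67, -0.24, was not called.

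**Figure D3:**
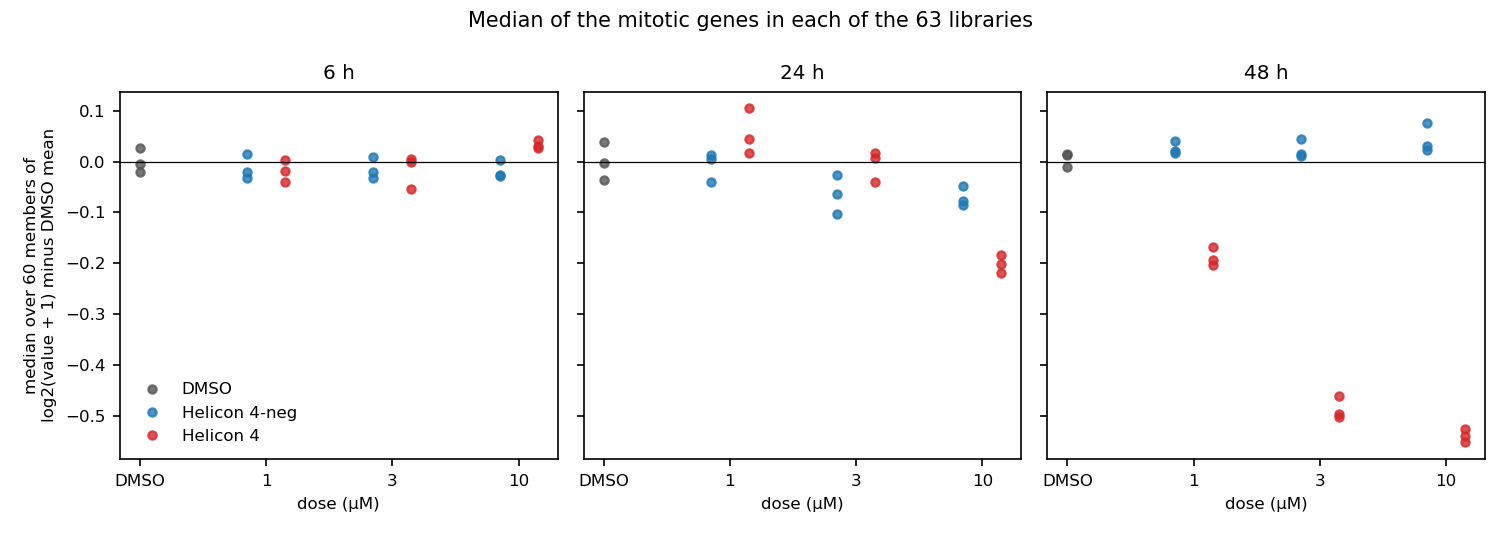
Median over the 60 genes of log2(value + 1) minus the DMSO mean of the same time, for each library (points) by dose at 6, 24 and 48 h. At 48 h the Helicon 4 libraries sit at -0.17 to -0.20 at 1 µM, -0.46 to -0.50 at 3 µM and -0.53 to -0.55 at 10 µM, while Helicon 4-neg at 10 µM sits at 0.02 to 0.08.

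At 24 h the genes split by dose. With 10 µM Helicon 4, 35 of the 60 were lower than DMSO and 3 higher (27.6% and 25.1% of the 13213 genes tested), with a median of -0.21. At 1 µM, 6 were lower and 18 higher (10.3% and 8.59%), and at 3 µM, 19 were lower and 14 higher (24.4% and 20.8%). Without the libraries that stood apart the counts at 10 µM were 36 lower and 5 higher, and at 3 µM 21 lower and 16 higher. The dose slope fell in 42 genes and rose in none (20.2% and 15.7%), and KIF20B had the steepest, -0.51.

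Several of the genes were higher than DMSO at the low doses at 24 h. These were 18 of 60 at 1 µM and 14 of 60 at 3 µM, beside 8.59% and 20.8% of all genes tested. How many of all genes followed the patterns over doses given next was not counted. There were 10 genes higher at 1 and 3 µM but not called at 10 µM: CCNB1, CCNB2, CDC25C, PLK1, UBE2C, CENPA, NDC80, KIF2C, CKAP2 and RACGAP1. Another 3, CCNA2, AURKA and NUSAP1, were higher at 1 µM and lower at 10 µM. CDC25B, NEK2 and PTTG1 were higher at all 3 doses. CCNB1 read 223, 222 and 215 in DMSO, 266, 255 and 260 at 1 µM, 238, 251 and 263 at 3 µM and 211, 245 and 236 at 10 µM. Its libraries at 1 and 3 µM lay above all of DMSO and those at 10 µM overlapped it. NEK2 read 37.3, 42.8 and 38.5 in DMSO, 47.2, 50.2 and 49.6 at 1 µM, 51.6, 53.2 and 55.2 at 3 µM and 48.4, 47.2 and 47.0 at 10 µM. All 9 treated libraries were above DMSO.

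At 10 µM and 24 h, CENPF (log2 fold change -1.10, adjusted p = 0.0024), CENPE (-1.08) and KIF20B (-0.97) were the lowest. CENPF read 30.3, 28.2 and 26.3 in DMSO and 21.2, 9.07 and 10.3 with Helicon 4, so that replicate 1, which stood apart, was about 2 times the other 2 libraries. CDK1 read 197, 199 and 187 against 146, 164 and 164 (log2 fold change -0.30) and AURKB 125, 123 and 118 against 90.6, 106 and 94.0 (-0.33). Both were separated from DMSO in every library. AURKA read 148, 150 and 147 against 137, 146 and 136, and its small fall of -0.09 (adjusted p = 0.037) was lost without replicate 1 or 3 of Helicon 4 (adjusted p = 0.108 and 0.134) or any 1 DMSO library (0.0535 to 0.102). CCNB1 (0.07), PLK1 (-0.03), TOP2A (-0.16) and FOXM1 (-0.11) were not called. MKI67 was lower, at 8.04, 3.66 and 4.46 against 10.7, 10.2 and 10.1 (log2 fold change -0.89). The highest were CDC25B at 0.27, NEK2 at 0.26 and PTTG1 at 0.17, and the call of PTTG1 was lost without replicate 2 of Helicon 4 (adjusted p = 0.060).

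By role at 24 h, all 5 checkpoint genes were lower with 10 µM Helicon 4. So were 5 of 7 kinetochore genes (median -0.48), 7 of 10 kinesins (-0.30), 5 of 7 genes of the condensin group (-0.50) and 3 of 4 cytokinesis genes (-0.14). The chromosomal passenger complex had 2 of 4 genes lower (-0.23), the spindle-associated proteins 3 of 7 (-0.16) and the transcription factors 1 of 2 (-0.29). The CDK1 group had 2 genes lower and 1 higher with a median of 0.08, and the Aurora, Polo-like and NIMA-related kinases also had 2 lower and 1 higher (-0.06), NEK2 being the higher one. Of the 4 genes that start anaphase none was lower and PTTG1 was higher, with a median of -0.01. MAD2L1 was called against DMSO at this time and not at 48 h: it read 225, 232 and 215 in DMSO and 159, 180 and 174 with Helicon 4. Its DMSO level itself changed by -0.61 from 24 to 48 h, and at 48 h it was lower than with Helicon 4-neg (-0.36).

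Against Helicon 4-neg at 24 h, 24 genes were lower and 7 higher at 10 µM (27.6% and 25.1% of all genes). At 3 µM, 10 were lower and 19 higher (23.3% and 19.6%), and at 1 µM, 6 and 18 (14.1% and 11.4%). Without the libraries that stood apart, these were 30 lower and 4 higher at 10 µM and 9 lower and 18 higher at 3 µM. The lowest at 10 µM were SPC25 at -0.55, MAD2L1 at -0.50 and MYBL2 at -0.50, and the highest ASPM at 0.39, KIF14 at 0.33 and NEK2 at 0.26. KIF14 was lost without replicate 1 or 3 of Helicon 4 (adjusted p = 0.135 and 0.0685) or replicate 3 of Helicon 4-neg (0.0583). CCNB1 was not called, with a difference of -0.05 (95% interval -0.15 to 0.05). CENPF and CENPE, the lowest genes against DMSO at this time, were not called between the compounds either: their differences of 0.20 (-0.39 to 0.78) and 0.21 (-0.33 to 0.74) have wide intervals.

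At 6 h, 7 to 11 of the 60 genes were called with Helicon 4, depending on the dose. At 10 µM, 9 were higher and 1 lower than DMSO (5.32% and 8.40% of the 13057 genes tested), with a median of 0.04. Those higher were CDCA8 (0.19), BIRC5 (0.19), CKAP2 (0.18), CDC20 (0.17), RACGAP1 (0.17), AURKB (0.15), NCAPG (0.14), ECT2 (0.12) and CCNB1 (0.11), and ESPL1 (-0.42) was lower. AURKB read 110, 110 and 117 in DMSO and 120, 129 and 126 with Helicon 4, a small shift with no overlap. CENPF at -0.52 and MKI67 at -0.50 were not called. For CENPF the DMSO library that stood apart read 16.3, beside 7.59 and 7.99. CDK1 (180, 159 and 179 against 184, 187 and 183), AURKA, PLK1, TOP2A and FOXM1 were not called at this time. Without the DMSO library that stood apart, 5 genes were higher and 1 lower. Without replicate 3 of Helicon 4, 4 genes in all were called, and without replicate 3 of DMSO, 17.

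At 1 µM, 4 genes were higher and 7 lower at 6 h (5.61% and 7.07%), which median centring of the libraries turned into 10 and 6. Without the DMSO library that stood apart, no gene was called. At 3 µM, 4 were higher and 3 lower (4.65% and 4.52%), with 7 and 2 after centring and 1 and 1 without that library. Leaving out other libraries moved these counts too: 17 and 12 genes were called at 1 and 3 µM without DMSO replicate 3, 3 and 0 at 1 µM without Helicon 4 replicate 1 or 2, and 1 and 4 at 3 µM without Helicon 4 replicate 2 or 3. The dose slope at 6 h rose in 2 genes, ANLN (0.19) and KIF14 (0.30), and fell in none (3.45% and 5.24%). Without replicate 1 at 10 µM it was called in no gene, and without replicate 3 there or any 1 library at 1 or 3 µM in 1.

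Between the compounds at 6 h, 7 genes were higher with Helicon 4 at 10 µM and none lower (2.72% and 5.71%). These were NDC80 (0.26), PLK4 (0.18), RACGAP1, CKAP2 and BIRC5 (0.16 each), NUF2 (0.15) and PRC1 (0.13). That count was 2 or 3 without replicate 1 or 2 of Helicon 4 or any 1 library of Helicon 4-neg. At 1 and 3 µM limma called none of the 60 (0.00766% higher and 0.0536% lower of all genes at 1 µM, 0.475% and 1.16% at 3 µM), while 10 and 9 had an unadjusted p below 0.05 and edgeR called 0 and 0. CDK1 differed by 0.04 (95% interval -0.05 to 0.13) at 1 µM, by 0.10 (0.02 to 0.19, adjusted p = 0.258) at 3 µM and by 0.04 (-0.05 to 0.13) at 10 µM.

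Helicon 4-neg itself moved some of these genes, without the broad fall. At 48 h and 10 µM, 13 of the 60 were higher than DMSO and 5 lower (10.4% and 8.55% of all genes), with a median of 0.02. ECT2 (0.43), RACGAP1 (0.38) and CCNA2 (0.35) were the highest and CENPE (-0.51), CENPF (-0.50) and UBE2C (-0.27) the lowest. PLK1 rose, with 187, 193 and 195 against 168, 150 and 160 in DMSO (log2 fold change 0.27), where with Helicon 4 it fell. AURKB was lower, at 139, 147 and 144 against 154, 167 and 159 (-0.15). CDK1 read 189, 195 and 194 and AURKA 143, 151 and 146, close to DMSO. The count of called genes at 10 µM was 6 and 7 without DMSO replicate 2 or 3, and 10 without Helicon 4-neg replicate 2 or 3, each in turn. ECT2 was lost without Helicon 4-neg replicate 2 (adjusted p = 0.0627) or DMSO replicate 2 (0.0790) or 3 (0.0683). CENPE was lost without Helicon 4-neg replicate 3 (0.0676) or DMSO replicate 2 (0.0636) or 3 (0.0568). UBE2C was lost without Helicon 4-neg replicate 2 or DMSO replicate 2 or 3 (0.0651 to 0.0864), AURKB without any library of Helicon 4-neg or DMSO replicate 2 or 3 (0.0720 to 0.193), RACGAP1 without DMSO replicate 3 (0.0618) and PLK1 without DMSO replicate 2 (0.0666). At 1 µM, 13 were higher and 6 lower (14.0% and 10.3%) and at 3 µM, 15 and 9 (15.8% and 12.5%). Median centring turned the latter into 9 higher and 11 lower, and without the libraries that stood apart the counts were 11 and 3 at 1 µM and 10 and 7 at 3 µM. At 1 µM, 12 genes in all were called without DMSO replicate 2. The dose slope at 48 h rose in 2 genes and fell in none (1.14% and 1.11%), and in 1 or no gene without any 1 of the libraries at 10 or 1 µM. CENPF and CENPE lay further below DMSO at the lower doses of Helicon 4-neg at 48 h. CENPF was at -0.94 at 1 µM and -0.89 at 3 µM, and CENPE at -0.90 and -0.82, all called lower.

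At 24 h, Helicon 4-neg at 10 µM gave 6 genes higher and 16 lower (5.55% and 6.16%), or 8 and 13 after median centring. Without DMSO replicate 1 the total was 10, and without Helicon 4-neg replicate 2, 14. CENPF (-1.30), CENPE (-1.29) and KIF20B (-0.76) were lowest, and CENPA (0.26), BIRC5 (0.25) and PTTG1 (0.22) highest. CENPF read 14.0, 8.35 and 10.9 and CENPE 3.97, 2.65 and 2.92, within or near the range of the Helicon 4 libraries of that time. TOP2A was lower, at 230, 232 and 237 against 324, 295 and 290 in DMSO (-0.38), while AURKA (0.11) and PLK1 (0.14) were higher. AURKA was lost without any 1 of its 6 libraries (adjusted p = 0.0745 to 0.142). Without DMSO replicate 1 CENPA (0.0827), BIRC5 (0.0676) and PTTG1 (0.0501) were lost too, and BIRC5 also without Helicon 4-neg replicate 2 (0.0513). At 3 µM 12 genes were lower and none higher (1.93% and 0.431%). That count was 1 without Helicon 4-neg replicate 3, 6 without its replicate 1 or 2, and 2 and 5 without DMSO replicate 1 or 2. At 1 µM limma called none (0% of all genes in either direction), 4 genes had an unadjusted p below 0.05 and edgeR called 0. The slope rose in 10 genes and fell in 17 (9.87% and 9.90%), or 14 and 13 after centring, and 12, 15 and 16 genes in all were called without replicate 1 at 1 µM, replicate 1 at 10 µM or replicate 2 at 10 µM.

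At 6 h limma called none of the 60 with Helicon 4-neg at 1 µM (0.00766% of all genes higher and 0.0230% lower) or 10 µM (0.146% and 0.115%), with 7 and 10 genes at an unadjusted p below 0.05 and none called by edgeR. At 3 µM it called MKI67 lower (0.781% and 0.965%), a call that was lost without the DMSO library that stood apart (adjusted p = 0.0740) or replicate 1 or 3 of Helicon 4-neg (0.106 and 0.0572), and 9 genes had an unadjusted p below 0.05. The slope at 6 h had no gene called (0.0153% higher and 0.0460% lower), with 0 at an unadjusted p below 0.05 and 0 by edgeR.

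The reference itself changed with time in culture. In DMSO, 46 genes were higher at 24 h than at 6 h and none lower (9.88% and 10.5% of the 13782 genes of the fit of all times). From 24 to 48 h, 14 were higher and 30 lower (22.5% and 28.4%), or 18 and 21 after median centring, and from 6 to 48 h 31 were higher and 15 lower (25.1% and 29.3%). Over that span CENPE and CENPF rose by far the most, at log2 fold changes of 2.28 and 2.24, CENPF from 7.59, 16.3 and 7.99 to 46.9, 55.2 and 51.7. CDK1 (0.25), CCNB1 (0.30), AURKB (0.50) and TOP2A (0.44) were higher at 48 h than at 6 h, and PLK1 (-0.38), FOXM1 (-0.38), RACGAP1 (-0.71) and ECT2 (-0.93) lower. A fold change against DMSO of the same time is therefore set against a level that differs between times.

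The change in effect with time was tested at 10 µM in 1 fit of all libraries. Helicon 4 against DMSO was lower at 48 h than at 6 h in 50 genes and higher in none (22.6% and 26.8% of all genes), lower in 32 and higher in 1 from 6 to 24 h (19.6% and 19.0%), and lower in 35 and higher in 3 from 24 to 48 h (14.7% and 19.6%). Without the libraries that stood apart these were 54 and 0, 39 and 3, and 36 and 6. The difference between the compounds was lower at 48 h than at 6 h in 59 genes (19.9% lower and 20.7% higher of all genes), at 24 h than at 6 h in 28 with 1 higher (19.7% and 17.9%), and at 48 h than at 24 h in 46 (5.86% and 6.99%). For Helicon 4-neg against DMSO, 6 to 24 h gave 1 gene lower (0.631% and 0.522%), 24 to 48 h gave 6 lower and 21 higher (10.7% and 11.8%), and 6 to 48 h gave 1 lower and 5 higher (2.81% and 3.40%), or 1 and 1 after median centring. The last total was 15, 0 and 2 without DMSO replicate 1, 2 or 3 of 48 h, 3 without Helicon 4-neg replicate 2 or 3 of 6 h, and 2 without its replicate 2 of 48 h. The first was 8 without DMSO replicate 2 of 6 h and 0 without DMSO replicate 1 or 3 or Helicon 4-neg replicate 1 or 2 of 6 h, or replicate 1 of either group of 24 h. The comparisons with DMSO share its libraries, and those that span times share the libraries of the time in common.

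Gene length was set beside these values because several of these genes have long transcripts. The deposited length per gene ran from 1286 to 12807 bases among the 60, with a median of 4479, and 4922 over all genes; how it was computed is not stated. At least 8000 bases were listed for 7 genes: BUB3, ESPL1, CENPE, CENPF, ASPM, MKI67 and SMC4. Over the 60 genes, the log2 fold change of Helicon 4-neg at 10 µM at 24 h went with log2 length at a Pearson correlation of -0.69 and a Spearman correlation of -0.70. The median was -0.54 in the 7 long genes and -0.06 in the other 53. With Helicon 4 at 10 µM at 24 h the correlations were -0.50 and -0.42, and at 6 h they were -0.59 and -0.49 for Helicon 4 and -0.67 and -0.58 for Helicon 4-neg. These points share their libraries and the DMSO group, so the correlations are descriptions.

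At 48 h the picture differed, with correlations of 0.15 and 0.26 for 10 µM Helicon 4 against DMSO and 0.23 and 0.30 for Helicon 4 against Helicon 4-neg. All 7 long genes fell against DMSO (median -0.85), as did 47 of the other 53 (median -0.51). Between the compounds, 7 of 7 long genes and 52 of 53 others were lower, with medians of -0.66 and -0.58. With each library's trend on length subtracted, 54 genes were lower against DMSO and 59 against Helicon 4-neg, the same counts as without it. CENPF was then at -1.29, CENPE at -1.28 and MKI67 at -0.96 against DMSO at 48 h, and at 24 h with Helicon 4-neg CENPF was at -1.18, CENPE at -1.20 and MKI67 at -0.41. Whether length or RNA quality had a part in the 6 and 24 h values was not tested beyond this. Per kilobase of deposited length, which allows levels to be set side by side, UBE2C had the highest DMSO level at 48 h (142) and MKI67 the lowest (0.792), around a median of 15.4.

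**Figure D4:**
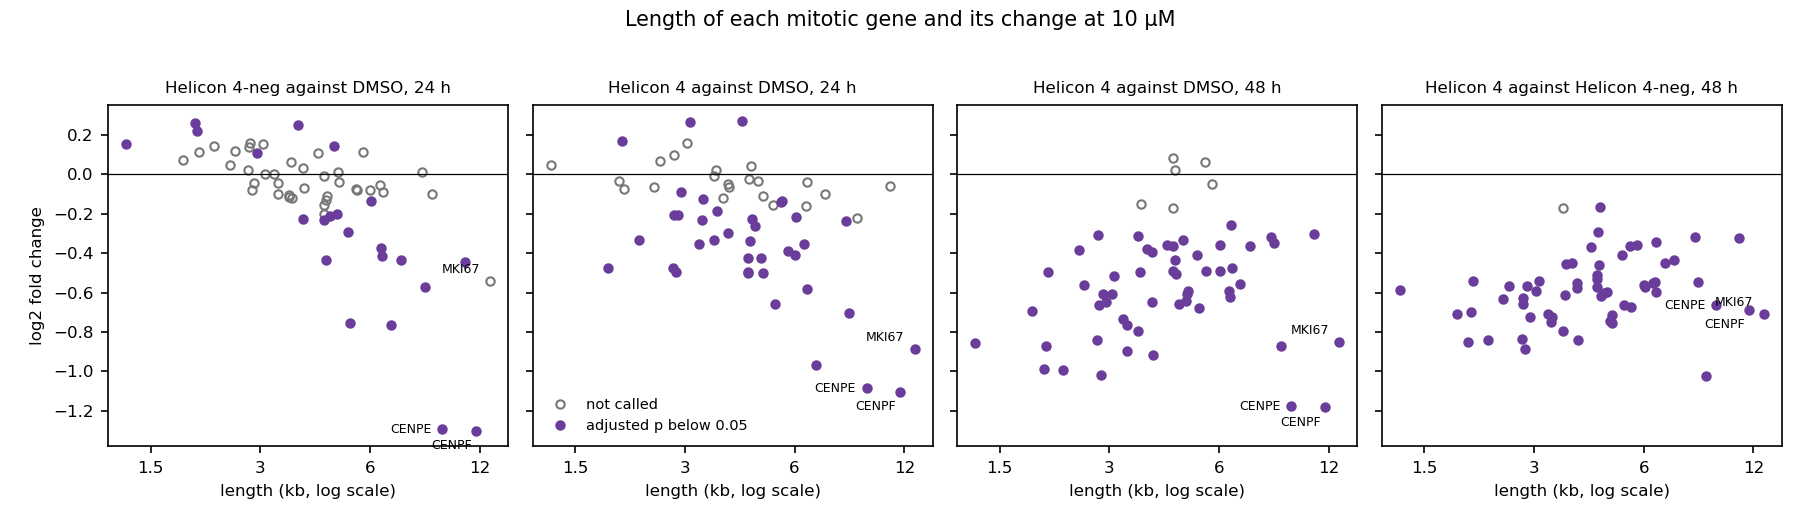
Log2 fold change at 10 µM against gene length in kilobases (log axis) for the 60 genes (points), in Helicon 4-neg against DMSO at 24 h, Helicon 4 against DMSO at 24 h and 48 h, and Helicon 4 against Helicon 4-neg at 48 h. Longer genes lie lower in the 24 h panels (Pearson -0.69 and -0.50). At 48 h, 57 of the 60 points lie below 0 against DMSO and all 60 against Helicon 4-neg.

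Genes outside the 60 were counted for comparison. Of 64 other mitotic genes, 55 fell and 1 rose with 10 µM Helicon 4 at 48 h, with a median of -0.54. CDCA3 (-1.04), a factor in degrading WEE1, and PKMYT1 (-1.02), an inhibitory kinase of CDK1, were lowest, and ZW10 (0.24), of the kinetochore RZZ complex, was the 1 gene that rose. Of 30 DNA replication genes, 29 fell and none rose, with a median of -0.76: RRM2, a subunit of ribonucleotide reductase, was at -1.09 and CDT1, which licenses origins, at -1.04. Of 20 MuvB, E2F and pocket protein genes, 11 fell and 3 rose, with a median of -0.30, E2F2 (-0.92) and E2F1 (-0.89) being lowest and RBL2 (0.39) and NFYA (0.21) highest.

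At 24 h the lists were further apart. With 10 µM Helicon 4 the replication genes had a median of -0.67, with 29 lower and none higher, beside -0.21 for the 60 mitotic genes and -0.24 for the other mitotic genes (42 lower, 3 higher). At 1 µM, 15 replication genes were lower and none higher (median -0.16), and at 3 µM 28 and none (median -0.46), where the 60 mitotic genes stood at 0.04 and -0.03. The difference between the lists was not tested. The 13 mitochondrially encoded transcripts were read beside these as a sign of library composition. With 10 µM Helicon 4 their medians were -0.34 at 6 h, 0.36 at 24 h and -0.58 at 48 h. Of the 13, 11 were called lower at 6 h (8.40% of all genes), 13 higher at 24 h (25.1%) and 6 lower at 48 h (28.7%). Their part in the results was not tested.

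**Figure D5:**
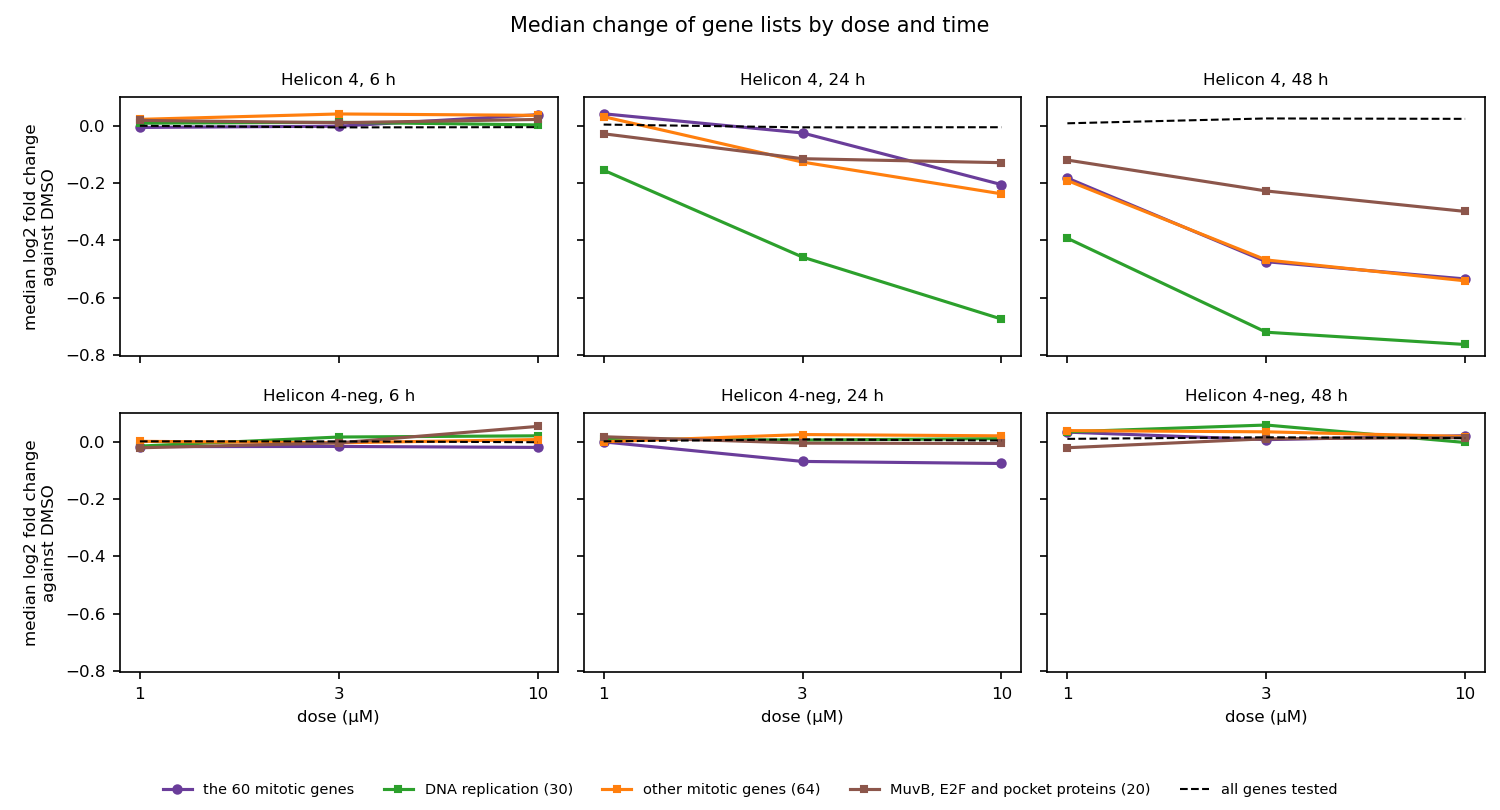
Median log2 fold change against DMSO by dose at 6, 24 and 48 h for the 60 mitotic genes, 64 other mitotic genes, 30 replication genes, 20 MuvB, E2F and pocket protein genes and all genes tested (dashed), with Helicon 4 and with Helicon 4-neg. With Helicon 4 at 24 h the replication genes reach -0.67 at 10 µM while the 60 mitotic genes are at -0.21, and at 48 h they are at -0.76 and -0.53.

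The promoters of these genes share short motifs that the choice by symbol did not use. Windows from 250 bases before to 50 after the start, from RefSeq on GRCh38.p14, were at hand for 52 of the 60. The cell cycle genes homology region, a site bound by MuvB complexes and searched here as TTTGAA or TTCGAA on either strand, was in 40 of the 52 (76.9%), in 15.9% of 10505 genes of the expression table with a window, and in 3 of 26 replication genes (11.5%). The CCAAT box, bound by NF-Y and searched as CCAAT on either strand, was in 40 of 52 (76.9%) against 43.5% of genes of the table. It was in 17 of 26 replication genes (65.4%) as well. Both motifs were in 31 of 52 (59.6%) against 6.70%, and in 3 of 26 replication genes (11.5%). The 2 motifs can share at most 1 letter, at an end, and TTCGAA reads the same on both strands. Among genes with a single window, the homology region lay between 60 bases before and 50 after the start in 29 of the 33 mitotic genes that had it (87.9%) and in 249 of 811 genes of the table (30.7%).

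The windows of 7 genes are shown, those of the largest falls at 48 h (CENPF, CENPE and SPC24), those of the smallest changes (CKAP2 and MAD2L1), and CCNB2 and PLK1, which were added by function after the values were seen. Capitals mark TTTGAA or TTCGAA and CCAAT on either strand (TTCAAA and ATTGG on the other). CENPF is on chr1:214602945-214603244 (+), CENPE on chr4:103198294-103198593 (-), SPC24 on chr19:11155733-11156032 (-), CKAP2 on chr13:52455738-52456037 (+), MAD2L1 on chr4:120066799-120067098 (-), CCNB2 on chr15:59104896-59105195 (+) and PLK1 on chr16:23678639-23678938 (+), each printed 5′ to 3′ on the strand of the gene.
CENPF: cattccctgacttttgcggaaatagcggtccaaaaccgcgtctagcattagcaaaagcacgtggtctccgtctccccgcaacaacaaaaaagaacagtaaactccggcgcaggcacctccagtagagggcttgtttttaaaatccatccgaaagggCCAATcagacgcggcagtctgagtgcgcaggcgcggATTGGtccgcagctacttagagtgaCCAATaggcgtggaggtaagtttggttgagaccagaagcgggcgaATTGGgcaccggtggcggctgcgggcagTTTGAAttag
CENPE: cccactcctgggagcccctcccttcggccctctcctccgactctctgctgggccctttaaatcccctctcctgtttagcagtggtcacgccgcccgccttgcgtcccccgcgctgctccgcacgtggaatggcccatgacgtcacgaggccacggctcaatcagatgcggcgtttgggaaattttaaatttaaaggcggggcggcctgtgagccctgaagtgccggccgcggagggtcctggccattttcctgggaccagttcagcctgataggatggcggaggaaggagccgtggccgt
SPC24: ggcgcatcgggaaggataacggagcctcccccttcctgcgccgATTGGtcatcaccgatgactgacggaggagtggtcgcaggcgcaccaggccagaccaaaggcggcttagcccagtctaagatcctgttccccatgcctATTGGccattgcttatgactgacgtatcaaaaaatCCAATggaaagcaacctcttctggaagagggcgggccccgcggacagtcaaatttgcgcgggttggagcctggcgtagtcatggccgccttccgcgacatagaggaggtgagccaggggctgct
CKAP2: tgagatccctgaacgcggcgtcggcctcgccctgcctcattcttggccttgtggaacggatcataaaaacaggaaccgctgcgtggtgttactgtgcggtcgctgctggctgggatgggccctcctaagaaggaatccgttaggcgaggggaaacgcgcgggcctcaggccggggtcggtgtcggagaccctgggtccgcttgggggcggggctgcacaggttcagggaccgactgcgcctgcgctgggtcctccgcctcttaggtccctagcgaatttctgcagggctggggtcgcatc
MAD2L1: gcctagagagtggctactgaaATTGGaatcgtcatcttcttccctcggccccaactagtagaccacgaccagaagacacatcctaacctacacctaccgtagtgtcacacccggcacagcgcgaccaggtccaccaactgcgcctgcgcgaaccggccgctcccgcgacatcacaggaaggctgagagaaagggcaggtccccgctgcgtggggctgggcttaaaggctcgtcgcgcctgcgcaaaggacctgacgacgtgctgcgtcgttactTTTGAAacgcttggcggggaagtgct
CCNB2: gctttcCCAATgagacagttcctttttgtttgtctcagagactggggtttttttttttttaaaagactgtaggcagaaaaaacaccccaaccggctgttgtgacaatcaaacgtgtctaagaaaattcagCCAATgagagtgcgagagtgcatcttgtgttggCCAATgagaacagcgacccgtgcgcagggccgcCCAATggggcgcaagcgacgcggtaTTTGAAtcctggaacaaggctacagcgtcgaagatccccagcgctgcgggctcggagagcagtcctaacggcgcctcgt
PLK1: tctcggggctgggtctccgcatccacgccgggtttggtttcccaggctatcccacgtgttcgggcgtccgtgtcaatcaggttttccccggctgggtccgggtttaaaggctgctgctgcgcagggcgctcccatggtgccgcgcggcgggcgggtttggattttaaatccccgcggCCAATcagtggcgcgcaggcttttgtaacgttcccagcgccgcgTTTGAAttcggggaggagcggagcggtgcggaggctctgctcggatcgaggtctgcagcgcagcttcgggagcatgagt

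CCNB2 and PLK1 each hold 1 homology region 29 bases before the start, CCNB2 with 4 CCAAT motifs upstream and PLK1 with 1. CENPF has 1, at 41 bases after the start, and MAD2L1 1, at 25 after. CENPE and CKAP2, a gene with a large fall and one with hardly any change, hold neither motif in this window, and SPC24 holds 3 CCAAT motifs only. Genes with the homology region had a median log2 fold change of -0.49 at 48 h with 10 µM Helicon 4 (40 genes) and those without it -0.79 (12 genes). Against Helicon 4-neg the medians were -0.57 and -0.68. At 24 h the order was the other way, at -0.22 and -0.13 against DMSO and -0.12 and -0.05 against Helicon 4-neg. Genes with the CCAAT box (40) and without it (12) had medians of -0.56 and -0.49 at 48 h against DMSO. Against Helicon 4-neg these were -0.58 and -0.59. At 24 h they were -0.19 and -0.49 against DMSO, and -0.10 and -0.09 against Helicon 4-neg. These differences were not tested. A match is a description of the letters and not evidence of a bound site.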

How the data were processed

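The authors deposited 1 table of gene values for 63 libraries, which they call CPM. Its columns do not sum to a common total, and per the submitters' processing notes reads were trimmed with Trimmomatic 0.39, aligned with STAR 2.7.7a to GRCh38, counted with featureCounts (Subread 2.4.2) and processed with edgeR 4.0.2. Per the labels' protocols, libraries came from a stranded kit with poly(A) enrichment. The annotation, the strand setting and the filter on genes are not given in the sources used here. The deposited values behave as a signal: read counts per gene divided by a size factor per library. The step between low values gave back whole reads, and 100% of values came out whole within 0.01 reads. Total reads per library (16628595 to 32860333, median 22123187) set the counting precision, and intervals cover the spread between replicates. Column sums lay within 0.930 to 1.06 of their geometric mean. No 2 replicates were identical (0 of 63 pairs), and replicate counts differed beyond sampling noise (chi-square per gene 1.92 to 28.0).

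Values were tested as log2(value + 1) with limma 3.58.1 (R 4.3.3), with a trended prior. Each time was fitted on its 21 libraries, and changes between times were fitted on all 63. The filter required 0.5 or more in 3 or more libraries. Two-sided p-values were corrected by the Benjamini-Hochberg method over all genes of a contrast, with a threshold of 0.05. On recovered counts, edgeR 4.0.16 with TMM factors was run as an alternative. It called 54 of the 60 genes for 10 µM Helicon 4 against DMSO at 48 h and 59 against Helicon 4-neg. Other alternatives were a pseudocount of 0.1, no filter, median centring, a replicate block, subtraction of length trends, 1 fit of all libraries and leaving out each library. Subtraction of length and GC trends (GC from GENCODE 29, 13943 genes) and leaving out the libraries that stood apart were chosen after seeing the data. A library stood apart when its nearest library was of another group and its mean distance to its replicates was above 0.18 and at least 1.25 times that between those replicates.

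The 60 genes, the roles and the comparison lists were chosen with earlier results of these data known. Genes named in the text are 8 chosen by function, the 3 lowest and 3 highest in each 10 µM comparison, the lowest and highest of each role at 48 h, and the lowest and highest called genes of each comparison list. Other members were named after their values were seen. Of the table, 14 rows share a gene symbol with another row. Scripts were tested on simulated data. Leukocyte marker sums were 9.66 to 16.4, endothelial sums 0.0438 to 2.22, neuroendocrine sums 19.3 to 41.4 and fibroblast sums 7.21 to 70.9 across libraries.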

Additional observations from a re-analysis of the deposited data

Results flagged for a closer look

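Effects at 10 µM differed between times by the test of the difference itself, an interaction contrast in limma over all 63 libraries. For Helicon 4 against DMSO the number of the 60 genes whose effect differed was 33 between 6 and 24 h, 38 between 24 and 48 h and 50 between 6 and 48 h. For Helicon 4 against Helicon 4-neg it was 29, 46 and 59, and for Helicon 4-neg against DMSO 1, 27 and 6. For Helicon 4 against DMSO, the shares of all genes lower and higher were 19.6% and 19.0%, 14.7% and 19.6%, and 22.6% and 26.8%. Between the compounds they were 19.7% and 17.9%, 5.86% and 6.99%, and 19.9% and 20.7%. For Helicon 4-neg against DMSO they were 0.631% and 0.522%, 10.7% and 11.8%, and 2.81% and 3.40%.

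Some genes were called in opposite directions at 2 times. How many of all genes tested did so was not counted. With Helicon 4, AURKB turned from 0.15 at 6 h to -0.33 at 24 h (a difference of -0.49) and -0.99 at 48 h (-1.15), and NCAPG from 0.14 to -0.50 (-0.64) and -0.59 (-0.73). From 24 to 48 h, CDC25B changed by -0.63, NEK2 by -0.78 and PTTG1 by -1.04. From 6 to 48 h, CCNB1 changed by -0.67, BIRC5 by -0.57, CDCA8 by -0.57 and CDC20 by -0.67. With Helicon 4-neg, from 24 to 48 h, BUB1 changed by 0.35, HMMR by 0.41, SMC4 by 0.77 and UBE2C by -0.43.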

How the results depend on the processing

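No named gene that was called changed sign under the alternatives run. Median centring turned the balance of some counts: from 4 higher and 7 lower to 10 and 6 for Helicon 4 at 1 µM at 6 h, from 15 and 9 to 9 and 11 for Helicon 4-neg at 3 µM at 48 h, and from 10 and 17 to 14 and 13 for the Helicon 4-neg slope at 24 h. Helicon 4 at 3 µM at 6 h turned from 4 higher and 3 lower to 1 and 3 with length and GC trends removed and 0 and 1 in 1 fit of all libraries. At 48 h and 10 µM, leaving out 1 library left 54 genes called for Helicon 4 against DMSO and 57 to 60 against Helicon 4-neg. Of 124 named values, of which 70 were called, leave-one-out repeats kept the side of the threshold in 678 of 744 cases, lost it in 60 and gained it in 6. Same-numbered replicates did not deviate together on average (mean correlations of -0.05, -0.02 and -0.05 at 6, 24 and 48 h). Such a mean cannot exclude that the numbers pair some libraries. Replicate 1 of Helicon 4 at 3 µM and replicate 1 at 10 µM at 24 h were each other's nearest library (distance 0.161). With the replicate block 54 and 59 genes were called in those 2 comparisons of 48 h and 10 µM. It gave 1 gene for the Helicon 4 slope at 6 h and 0 for the Helicon 4-neg slope at 48 h. For Helicon 4-neg from 6 to 24 h it gave 2. Helicon 4 at 6 h and 1 µM gave 11 genes, 6 with length and GC trends removed, 5 in 1 fit of all libraries and 0 without the libraries that stood apart. At 3 µM it gave 7, and 4, 1 and 2 under the same settings. At 10 µM it gave 10, 16 with median centring and 6 without those libraries, and against Helicon 4-neg 7, and 11 with centring. Helicon 4-neg at 3 µM gave 1 gene, 2 with the length trend or length and GC trends removed and 0 without those libraries. The Helicon 4 slope at 6 h gave 2, 1 with no filter and 7 with length and GC trends removed, and the Helicon 4-neg slope at 48 h 2, 1 with either trend removal and 0 in 1 fit. For Helicon 4-neg, 6 to 24 h gave 1, 2 with centring, 0 with length and GC trends removed and 17 without those libraries, and 6 to 48 h gave 6, 2 with centring and 10 without them. Leaving out 1 library gave, with Helicon 4 at 6 h, 0 to 17 genes at 1 µM, 1 to 12 at 3 µM, 4 to 17 at 10 µM, 2 to 5 against Helicon 4-neg at 10 µM and 0 to 2 for the slope. With Helicon 4-neg it gave at 6 h 0 to 1 at 1 µM and 0 to 3 at 3 µM, at 24 h 1 to 8 at 3 µM, 10 to 19 at 10 µM and 12 to 24 for the slope, and at 48 h 11 to 21 at 1 µM, 6 to 20 at 10 µM and 0 to 2 for the slope. From 6 to 24 h it gave 0 to 8 and from 6 to 48 h 0 to 15. With the length trend removed, Helicon 4-neg at 10 µM at 24 h had 3 genes higher and 17 lower. Median centring moved the median of all genes by 0.1 between 24 and 48 h in DMSO and by -0.117 for Helicon 4 from 6 to 48 h. The cause was not tested.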
